A study of Mus musculus with 7 samples.

Results

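Sites of EED, a core subunit of Polycomb repressive complex 2 (PRC2), were compared with sites of H3K4me3, trimethylated lysine 4 of histone H3, in mouse spermatocytes at postnatal day 17 (P17). Of 2701 EED peaks, 2044 overlapped an H3K4me3 peak by at least 1 bp, and of 51603 H3K4me3 peaks, 960 overlapped EED. These 2 sets of overlapping peaks are the subject here. All cells came from wild-type CD1 mice. The testes were dissociated with enzymes and the spermatocytes separated on Percoll, then fixed, sonicated and immunoprecipitated. The EED list came from 1 replicate and the P17 H3K4me3 and H3K27me3 lists from pools of 2 replicates each, while the lists of H3K4me3 and H3K27me3 at postnatal day 12 (P12) came from 1 replicate each. Of the 7 samples, 5 had peak lists, and both inputs were not analysed here.

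PRC2 trimethylates lysine 27 of histone H3 (H3K27me3), a mark of repressed genes. EED carries a pocket that binds H3K27me3 and stimulates the enzyme of the complex, so PRC2 can bind the mark it writes. H3K4me3 is written by SET1 and MLL complexes, is found at promoters rich in CpG, and in spermatocytes also marks the sites where PRDM9 directs meiotic recombination. Promoters that carry both marks are called bivalent and were described mainly at regulators of embryonic development, in stem cells and in germ cells.

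Each peak list is a single set of positions on mm9 without heights or scores, so differences have no replicate check and no p-value was computed. Intervals in parentheses are 95% intervals. Those of shares (Wilson) and of medians (order statistics) treat called peaks as independent, and those of densities (exact Poisson) cover counting error only. For the P17 H3K4me3 sample the title and the antibody entry disagree, the latter giving H3K27me3. The title was followed: the P17 H3K4me3 list overlapped 95.7% of P12 H3K4me3 peaks and 66.3% of P12 H3K27me3 peaks. The lists hold no expression values, so the cell type could not be checked against markers. The depth of the libraries behind the lists is not given in the sources used here. An overlap of peaks does not show that both lie on the same chromosome copy or in the same cell.

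Most EED lay on H3K4me3. The share of EED peaks with H3K4me3 was 75.7% (74.0% to 77.3%). In length, 1.15 Mb of 1.48 Mb of EED (77.3%) fell under H3K4me3 peaks, which covered 4.13% of the 2575 Mb between the first and the last peak of each chromosome. A total of 1673 EED peaks (61.9%) lay wholly inside an H3K4me3 peak, and 371 (13.7%) crossed one of its edges. Long EED peaks could bridge several H3K4me3 peaks: 63 overlapped 2 or more, and the largest number under 1 EED peak was 4. Near the limit of 1 bp, 23 EED peaks overlapped H3K4me3 by at most 50 bp, the smallest overlap being 3 bp, and 23 lay outside with a gap of at most 50 bp. With P12 H3K4me3 peaks in place of those of P17, the share of EED peaks was 70.2% (68.5% to 71.9%).

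The density of EED was far lower beyond the H3K4me3 edge. Inside H3K4me3 there were 18.0 EED centres per Mb (17.2 to 18.8). In the first 1 kb outside the edges there were 3.33 per Mb (2.98 to 3.71), and from 1 to 5 kb 0.446 per Mb (0.377 to 0.523). Beyond 5 kb the density levelled off, at 0.162 per Mb from 5 to 20 kb and 0.146 per Mb farther out, with intervals that overlapped (0.134 to 0.194 and 0.126 to 0.168).

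Sequence with both marks held the most EED. Where P17 H3K4me3 and H3K27me3 peaks coincided, over 36.7 Mb, there were 1845 EED centres or 50.2 per Mb (48.0 to 52.6). Under H3K27me3 alone there were 7.59 per Mb (6.84 to 8.39), and under H3K4me3 alone 0.991 per Mb (0.771 to 1.25). In the remaining 2419 Mb, with neither mark, there were 410 EED centres or 0.169 per Mb. The intervals of these 4 densities did not overlap, but they treat EED centres as independent. Of 2701 EED peaks, 1854 (68.6%) lay within 1 kb of another EED peak, so the intervals are likely too narrow. The densities under H3K4me3 alone, from 69 EED centres, and with neither mark include a stretch of chromosome 6 described below, where no P17 H3K27me3 peak was listed. Leaving out that stretch took the EED centres inside H3K4me3 from 1914 to 1884, and the densities were not recomputed without it.

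**Figure D1:**
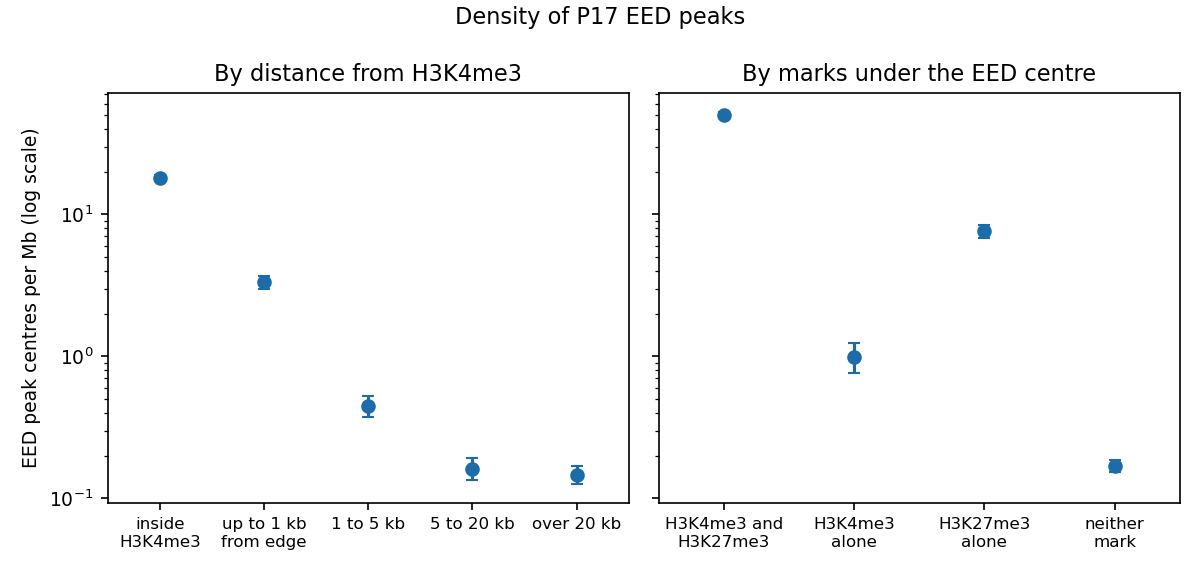
EED peak centres per Mb (log axis) by distance from the nearest H3K4me3 peak edge (left) and by the marks that cover the EED centre (right), with exact Poisson 95% intervals. The density is 18.0 per Mb inside H3K4me3 and 50.2 per Mb where H3K27me3 also lies, against 0.991 per Mb under H3K4me3 alone. The last value includes a chromosome 6 stretch without any listed P17 H3K27me3 peak.

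Most centres of EED peaks lay within a few kb of an H3K4me3 centre. Over all 2701 EED peaks the median distance to the nearest H3K4me3 centre was 1056 bp (1015 to 1120). It was 745 bp (698 to 796) for EED peaks that overlapped H3K4me3 and 5060 bp (4216 to 6453) for those that did not. Distances were counted in bins of equal width on a log scale. They had a main group around 1 kb and a low, fairly even tail from several kb to about 100 kb. Such bins widen in bp with distance, so neither the main group nor the tail by itself marks a preferred distance. Beyond 10 kb the tail was made up almost wholly of EED peaks without H3K27me3. The EED centres closest to an H3K4me3 centre were at chr11:18919586-18920051 and at chr1:99666567-99666808, both 0.5 bp away, and at chr13:23405572-23405740, 1 bp away.

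**Figure D2:**
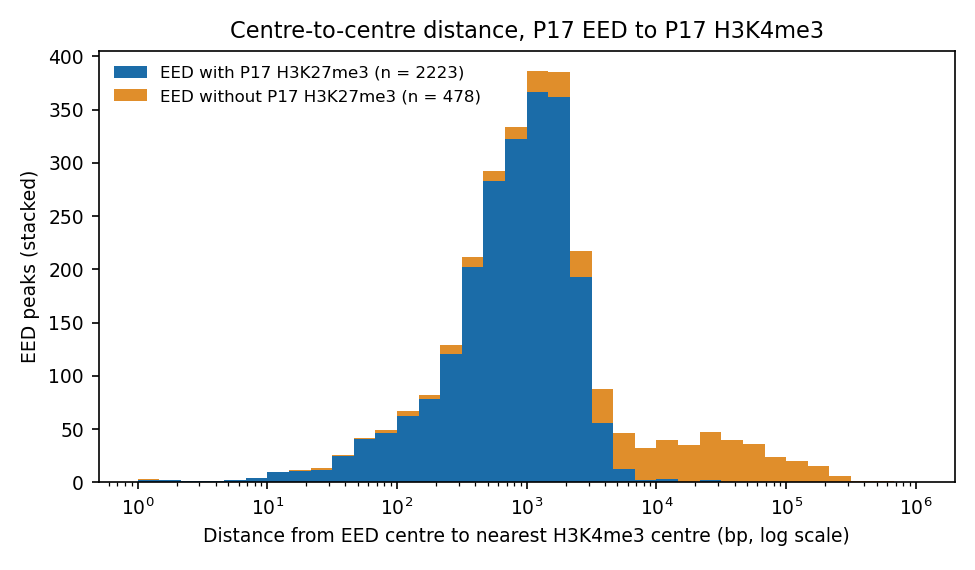
Distance from each EED peak centre to the nearest H3K4me3 centre (bp, log axis, values under 1 bp drawn at 1), as stacked counts of EED peaks with and without an overlapping P17 H3K27me3 peak. The 2223 EED peaks with H3K27me3 lie mostly within a few kb, and the 478 without it make up most of the distances over 10 kb.

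Within an H3K4me3 peak, EED spread broadly with fewer centres near the edges. On a scale from 0 at the H3K4me3 centre to 1 at its edge, the 1914 EED centres inside H3K4me3 had a median position of 0.438 (0.418 to 0.459). Cutting this scale into 5 equal parts gave 457, 427, 415, 360 and 255 EED centres from the centre outwards, so the outermost part held 13.3% (11.9% to 14.9%) and the innermost 23.9% (22.0% to 25.8%). The median position was 0.422 in H3K4me3 peaks up to 3 kb wide and 0.450 in wider ones, with overlapping intervals (0.393 to 0.453 and 0.422 to 0.476). In bp, the EED centre thus lay farther out in the wider peaks, at a median of 1043 bp against 427 bp.

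Many H3K4me3 peaks held several EED peaks. Of the 960 with EED, 426 (44.4%) had 1 EED peak, 237 had 2, 146 had 3, 72 had 4 and 79 (8.23%) had 5 or more. The median H3K4me3 width went from 2474 bp (2325 to 2610) with 1 EED peak to 5348 bp (4727 to 5966) with 5 or more. Of 474 H3K4me3 peaks that held at least 2 EED centres, 356 (75.1%) had EED centres on both sides of the H3K4me3 centre. Several centres can fall on both sides by their number alone, and no share expected from that was computed. EED covered a median of 30.1% (27.1% to 33.1%) of the H3K4me3 peak, and the H3K4me3 centre itself was covered in 417 of the 960 (43.4%).

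The H3K4me3 peaks with the most EED peaks showed this spacing (mm9, counted from 1). The first, at chr4:109646512-109658602, was 12091 bp wide and held 15 EED peaks of 196 to 1247 bp, which covered 52.6% of it. The second, on chromosome 18, was 8559 bp wide and held 10 EED peaks covering 45.2%. The third, at chr5:98612850-98619630, held 10 EED peaks of 163 to 593 bp covering 36.6% of 6781 bp. Both remaining peaks held 9 EED peaks. They lay at chr2:115885649-115894249 (8601 bp, 45.9% covered) and at chr5:58105101-58112279 (7179 bp, 48.7% covered). Each of these 5 peaks also overlapped H3K27me3 at P17 and at P12 and H3K4me3 at P12. So did most of all 960 H3K4me3 peaks with EED, at 94.4%, 92.0% and 96.3% for these 3 lists in turn. Genes are not named at these places, because no annotation of mm9 was used here.

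**Figure D3:**
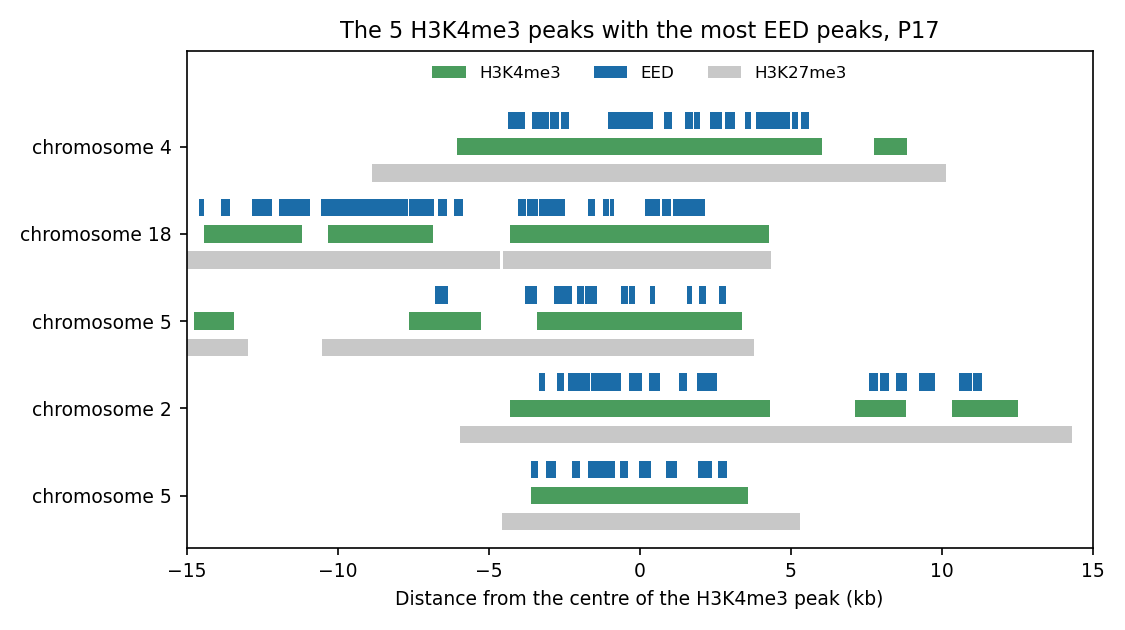
Called P17 peaks of EED, H3K4me3 and H3K27me3 within 15 kb of the centres of the 5 H3K4me3 peaks with the most EED peaks, drawn to scale as distance from the H3K4me3 centre (kb). EED peaks lie on both sides of each centre, and H3K27me3 peaks extend past the H3K4me3 edges.

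The wider an EED peak, the more often it lay on H3K4me3. A wider EED peak also has more sequence that can meet the limit of 1 bp. Shares by EED centre were not computed for classes of EED width. EED peaks on H3K4me3 had a median width of 356 bp (341 to 369), against 190 bp (185 to 197) for those outside. With EED peaks ranked by width into 5 classes of nearly equal number, the share on H3K4me3 went from 40.3% (36.2% to 44.4%) in the narrowest class through 70.4%, 84.1% and 88.3% to 95.7% (93.7% to 97.1%) in the widest. The widest EED peaks on H3K4me3 lay at chr10:50614356-50624645 (10290 bp, touching 4 H3K4me3 peaks), chr15:35223366-35233240 (9875 bp, 3 H3K4me3 peaks) and chr13:95639233-95648766 (9534 bp, 4 H3K4me3 peaks).

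EED peaks that lay in groups were more often on H3K4me3 than those that stood alone. When EED peaks separated by at most 1 kb were joined, 1334 groups resulted, of which 889 (66.6%) overlapped H3K4me3. All 119 groups of 5 or more EED peaks did so, as did 358 of 368 groups of 2 to 4, where 1 overlapping member sufficed. Counted by peak, the share on H3K4me3 was 85.2% (82.7% to 87.4%) in groups of 5 or more and 90.6% (88.6% to 92.3%) in groups of 2 to 4. Of the 847 EED peaks that stood alone, 412 (48.6%; 45.3% to 52.0%) overlapped H3K4me3.

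H3K4me3 peaks with EED were wider than those without. Their median width was 2910 bp (2802 to 3027), against 1703 bp (1694 to 1712) for the 50643 without EED, a ratio of 1.71. Peaks over 5 kb wide made up 14.8% (12.7% to 17.2%) of the former and 2.52% (2.39% to 2.66%) of the latter. The difference was present on both sides of the H3K27me3 division. Among H3K4me3 peaks with H3K27me3, the medians were 2934 bp with EED and 1865 bp without (ratio 1.57), and among those without H3K27me3 they were 2555 bp and 1605 bp (ratio 1.59, from 54 peaks with EED). Of these 54, 18 lay in 1 stretch of chromosome 6 without any P17 H3K27me3 peak, and without it the medians were 2218 bp (1853 to 2935, n = 36) and 1605 bp (1596 to 1615), a ratio of 1.38. The widths did not separate the groups: with EED they ran from 614 to 12870 bp and without EED from 405 to 16629 bp.

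**Figure D4:**
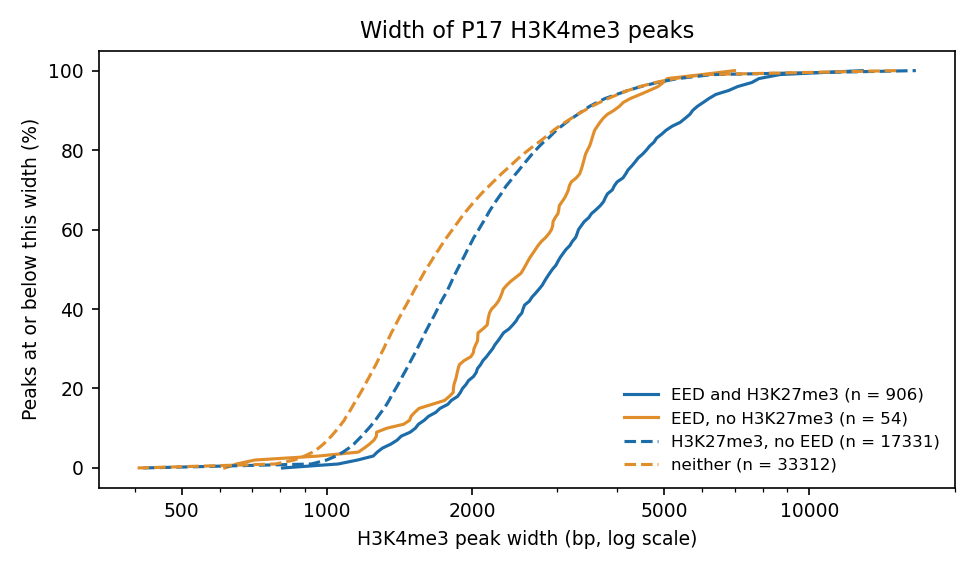
Cumulative distribution of H3K4me3 peak width (bp, log axis) for peaks with EED and H3K27me3, with EED and no H3K27me3, with H3K27me3 and no EED, and with neither. Both curves with EED lie to the right over most of the range, with medians of 2934 and 2555 bp against 1865 and 1605 bp.

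A wider peak offers more sequence to overlap, so EED was also counted per Mb of H3K4me3. Over all H3K4me3 peaks 1.86% (1.75% to 1.98%) overlapped EED. Of 10 width classes of nearly equal number, the narrowest (405 to 1098 bp) had EED on 0.270% of its peaks and the widest (3471 to 16629 bp) on 6.76% (6.11% to 7.48%). The widest class held 36.4% of the H3K4me3 peaks with EED. Per Mb of H3K4me3, EED centres went from 2.79 (1.53 to 4.69) in the narrowest class to 40.6 (38.1 to 43.2) in the widest. Wide H3K4me3 peaks thus held more EED per base as well as per peak.

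The width classes were then divided by H3K27me3. With H3K27me3, the share with EED was between 1.41% and 2.26% over the 6 narrowest classes. It was then 4.07%, 4.90% and 8.22%, and 17.4% (15.8% to 19.2%) in the widest class. Per Mb of H3K4me3, the density of EED centres was 15.0 (7.74 to 26.2) in the narrowest class and 103.9 (97.4 to 110.7) in the widest. In H3K4me3 peaks without H3K27me3 the share was 0.0458% (0.0126% to 0.167%) in the narrowest class, 0.455% (0.271% to 0.763%) in the class next to the widest and 0.342% (0.191% to 0.611%) in the widest. The wide classes thus had larger shares here too, at a far lower level. The density was 0.475 per Mb (0.0575 to 1.72), 2.03 per Mb (1.22 to 3.18) and 1.08 per Mb (0.615 to 1.75) in these classes, with overlapping intervals. Of the 54 peaks with EED and without H3K27me3, 18 lay in the chromosome 6 stretch. Neither the shares nor the densities by class were recomputed without it.

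**Figure D5:**
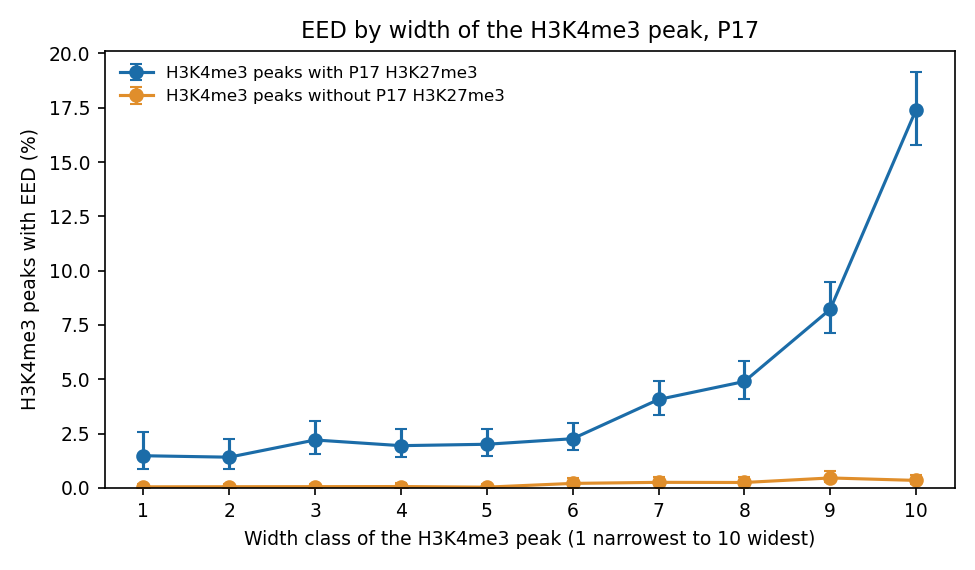
Percent of H3K4me3 peaks that overlap EED in 10 classes of H3K4me3 width, for peaks with and without P17 H3K27me3, with Wilson 95% intervals. With H3K27me3 the share is 1.48% in the narrowest class and 17.4% in the widest, and without it the share stays at or below 0.455%.

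Wide H3K4me3 peaks without EED were also present. The widest H3K4me3 peak of all, at chr11:74978140-74994768 (16629 bp), overlapped H3K27me3 at both stages but had no EED peak. The next widest without EED lay at chr7:31371350-31386490 (15141 bp) and chr2:112095839-112109551 (13713 bp), and neither overlapped H3K27me3. The widest with EED was at chr2:104962512-104975381 (12870 bp), with 8 EED peaks, followed by the chromosome 4 peak with 15. The third, at chr5:123584285-123596345 (12061 bp), had a single EED peak that covered 2.60% of it. At the other end, the narrowest with EED lay at chr2:43050886-43051499 (614 bp) and chr2:90234868-90235548 (681 bp), both without H3K27me3 and without P12 H3K4me3. The next was at chr1:129576039-129576847 (809 bp), with H3K27me3 at both stages.

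Nearly all EED on H3K4me3 was also on H3K27me3. Of the 2044 EED peaks, 1970 (96.4%; 95.5% to 97.1%) overlapped P17 H3K27me3, against 253 of the 657 (38.5%; 34.9% to 42.3%) outside H3K4me3. Seen from H3K27me3, 88.6% (87.2% to 89.9%) of EED peaks with H3K27me3 and 15.5% (12.5% to 19.0%) of those without it lay on H3K4me3. Of the 960 H3K4me3 peaks with EED, 906 (94.4%) overlapped H3K27me3, against 34.2% of those without EED. EED was on 4.97% (4.66% to 5.29%) of the 18237 H3K4me3 peaks with H3K27me3 and on 0.162% (0.124% to 0.211%) of the 33366 without. The latter was 0.0599% when EED peaks below the median width were left out. Most regions with both marks thus had no called EED peak.

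The exceptions included a single stretch of chromosome 6. Over chr6:52097777-52230508 (133 kb) the P17 H3K27me3 list held no peak, whereas the P12 list held 26. In it lay 47 EED peaks, 35 of them on H3K4me3, and 18 of its 23 H3K4me3 peaks had EED. It supplied 35 of the 74 EED peaks on H3K4me3 without P17 H3K27me3 and 18 of the 54 such H3K4me3 peaks. Without the stretch, which was left out after its values were seen, 98.1% (97.4% to 98.6%) of EED peaks on H3K4me3 overlapped H3K27me3, and EED was on 0.108% of H3K4me3 peaks without H3K27me3. No peak number was missing from the P17 H3K27me3 list, but whether the mark was absent from this stretch at P17 or its peaks are lacking from the list used here cannot be told apart. For the EED and H3K4me3 peaks of the stretch, "without H3K27me3" therefore means without a listed peak.

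EED on H3K4me3 without H3K27me3 at either stage was sparse and narrow. There were 38 such EED peaks, each standing alone. Their median width was 179 bp (169 to 212), against 358 bp (342 to 373) for EED peaks with both marks, of which 371 of 1970 (18.8%) stood alone. Outside both marks of P17 there were 404 EED peaks, 393 of them alone, with a median width of 174 bp (171 to 177), inside the interval of the former. These 404 include the EED peaks of the chromosome 6 stretch that lay off H3K4me3. Among the 404, 12 had H3K27me3 at P12.

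The H3K4me3 peaks with EED lay in wide H3K27me3 domains. The widest H3K27me3 peak over them had a median width of 13205 bp (12184 to 13695), against 3083 bp (3044 to 3120) for H3K4me3 peaks with H3K27me3 and no EED. An H3K27me3 peak over several H3K4me3 peaks was counted once for each of them. The medians thus give such domains more weight, and the intervals treat repeated widths as independent. H3K4me3 peaks with H3K27me3 were divided into 4 classes by that width and again at the median H3K4me3 width of 1716 bp. In the class with the widest H3K27me3 (5047 to 95692 bp), EED was on 11.3% (9.57% to 13.3%) of the narrower and 19.5% (18.2% to 20.8%) of the wider H3K4me3 peaks. In the next class (3201 to 5046 bp) the shares were 0.749% (0.395% to 1.42%) and 2.35% (1.89% to 2.92%). In both classes with narrower H3K27me3 they were at most 0.499%, with overlapping intervals between narrower and wider H3K4me3 peaks.

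EED at P17 was found mainly where H3K27me3 had also been called at P12. Of H3K4me3 peaks with H3K27me3 at both P12 and P17, 864 of 7581 (11.4%; 10.7% to 12.1%) had EED. With H3K27me3 at P17 but not at P12 the share was 42 of 10656 (0.394%; 0.292% to 0.532%). The P12 H3K27me3 list held 13028 peaks from 1 replicate and lacked 13.1% of its peak numbers. The P17 list held 26387 from 2 pooled replicates and lacked none. A site without the mark at P12 thus cannot be told apart from one that was not called or not listed. In the class with the widest H3K27me3, the shares were 20.3% (19.0% to 21.6%) of 3892 peaks with P12 H3K27me3 and 1.35% (0.714% to 2.55%) of 665 without it. This class spans 5047 to 95692 bp. Domain width within it was not compared between peaks with and without P12 H3K27me3, so a difference apart from width was not tested. In the next class they were 2.78% (2.22% to 3.49%) and 0.810% (0.499% to 1.31%). With narrower H3K27me3 too few peaks had EED to show whether the shares differed. In the class of 2163 to 3200 bp they were 3 of 873 (0.344%; 0.117% to 1.01%) and 12 of 3682 (0.326%; 0.187% to 0.569%). In the narrowest class, EED was on 0 of 230 peaks with and on 5 of 4334 peaks without P12 H3K27me3. H3K27me3 at P12 but not at P17 was found at 68 H3K4me3 peaks, of which 19 had EED, 18 of these in the chromosome 6 stretch.

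At EED sites H3K4me3 had mostly been called at P12 already. Of the 960 H3K4me3 peaks with EED, 924 (96.3%; 94.9% to 97.3%) overlapped P12 H3K4me3, against 80.2% (79.9% to 80.6%) of those without EED. Among H3K4me3 peaks with P17 H3K27me3, EED was on 5.17% (4.85% to 5.51%) of those with a P12 counterpart and on 2.40% (1.70% to 3.37%) of those without. Sites that lacked a P12 peak cannot be told apart from sites not called in the single P12 replicate.

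H3K4me3 peaks with EED lay close to other H3K4me3 peaks. The median gap to the next H3K4me3 peak was 1848 bp (1657 to 2176) with EED and 10734 bp (10584 to 10870) without. Among peaks with H3K27me3 the medians were 1771 bp (1567 to 1996) and 7827 bp (7644 to 8042).

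The 657 EED peaks outside H3K4me3 were divided by H3K27me3. The 253 with P17 H3K27me3 lay beside H3K4me3, at a median gap of 506 bp (404 to 603), had a median width of 283 bp, and 42 of them stood alone. The 404 without H3K27me3, which include EED peaks of the chromosome 6 stretch, lay at a median gap of 17916 bp (13891 to 21694). By distance, H3K27me3 was present at 191 of 219 EED peaks (87.2%) with a gap of up to 1 kb, at 57 of 181 (31.5%) from there to 10 kb, and at 5 of 257 (1.95%) farther away.

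The widest EED peaks outside H3K4me3 lay at chr14:122866349-122868122 (1774 bp), chr15:102825912-102827660 (1749 bp) and chr1:42759726-42761369 (1644 bp), with gaps of 914, 202 and 2890 bp to H3K4me3. Each overlapped H3K27me3 at both stages. The EED peaks farthest from H3K4me3 were narrower: chrX:120763450-120763660, chr9:37857425-37857625 and chr1:104837669-104837844, of 211, 201 and 176 bp, with gaps of 545209, 380062 and 292766 bp. No other list used here had a peak at these 3 places. Among EED groups without H3K4me3, the largest held 3 EED peaks, at chr12:34647397-34649053 and chr1:78206327-78207675. The third by the same ranking held 2, at chr12:74037398-74039179. These 3 groups had H3K27me3 at both stages and gaps of 1706, 4161 and 697 bp.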

How the data were processed

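Per the submitters' processing notes, reads were aligned to mm9, and Bowtie, SAMtools and HTSeq were used, with no role or version given. The deposited lists hold coordinates only. The authors called them with MACS, per the peak names, at the level 5 that the names of the lists give for a false discovery rate. The caller's settings are unstated in the notes and lists, and without scores a stricter threshold could not be applied. Peak names are numbered: the P12 H3K27me3 list lacked 1957 numbers (13.1%), that of EED 335 (11.0%) and that of P17 H3K4me3 132 (0.255%), while those of P17 H3K27me3 and P12 H3K4me3 lacked 0.

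Groups follow the sample titles. Overlap means at least 1 bp, and centres are midpoints. Gene-body counts were not used, and an mm9 genome or annotation was not used here. Regions named in the text follow a fixed ranking by number of EED peaks, width or distance. Members, comparisons and rankings were chosen with earlier results of these data known. The chromosome 6 stretch and the classes by H3K27me3 width and P12 marks were added after the lists had been seen. Overlap, coverage and distance functions were tested on simulated peaks against direct counts. Python 3.11.15, pandas 2.3.3 and SciPy 1.17.1 were used.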

Additional observations from a re-analysis of the deposited data

How the results depend on the processing

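With 12 alternative settings, 57 of 102 recomputed values stayed within the 95% interval of the value reported. Settings that leave out the X and Y chromosomes moved none of them. The chromosome 6 stretch, left out after the data were seen, moved 1: EED on H3K4me3 peaks without H3K27me3, 0.108%. The median distance between centres and the median position within the peak do not depend on the overlap rule and were not recomputed for it.

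The share of EED peaks with H3K4me3 was 71.6% when 50% of the EED peak had to be covered and 70.9% when its centre had to lie inside. It was 83.8% within 1 kb, 66.6% with EED peaks within 1 kb merged, 90.5% for EED peaks at or above the median width and 85.5% for those of at least 200 bp, the last chosen after the data were seen. It was 68.5% with H3K4me3 peaks at or above the median width, 73.9% with those shared with P12 and 71.1% without groups of 5 or more EED peaks. In that order of these 9 settings, the median gap of EED peaks outside H3K4me3 was 2020, 1861, 15154, 14576, 516 and 699 bp, within its interval for both H3K4me3 settings, and 9083 bp. Each of these settings also changes which EED peaks count as outside. The rule of 1 kb leaves out every gap up to that length. The rules of 50% and of the centre count some overlapping EED peaks as outside. The median gap thus moved more than any share did, in part by definition.

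The share of H3K4me3 peaks with EED was 2.01% within 1 kb, 1.68% with H3K4me3 peaks within 1 kb merged, 1.34% and 1.64% with EED peaks at or above the median width and of at least 200 bp, 3.16% for wide H3K4me3 peaks, 2.22% for those shared with P12 and 1.45% without large EED groups. With H3K27me3 it was 4.50%, 3.68%, 4.45%, 7.04% and 3.85% for H3K4me3 merged, wide EED, EED of at least 200 bp, wide H3K4me3 and no large EED groups. Without H3K27me3 it was 0.219% within 1 kb, 0.0599% with wide EED, 0.0989% with EED of at least 200 bp and 0.303% for wide H3K4me3.

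The median distance between centres was 1237 bp with EED merged, 1379 bp with H3K4me3 merged, 875 bp with wide EED, 938 bp with EED of at least 200 bp, 1379 bp with wide H3K4me3 and 1122 bp with H3K4me3 shared with P12. The median H3K4me3 width with and without EED was 3517 and 1739 bp with H3K4me3 merged and 3214 and 2426 bp for wide H3K4me3. For H3K4me3 shared with P12 the width without EED was 1859 bp. The median position within the peak was 0.378 with EED merged. The causes of these shifts were not tested beyond what each setting itself removes or joins. H3K4me3 peaks with EED were wider than those without in each setting. The EED list comes from 1 replicate, so sites that passed its threshold by chance or missed it cannot be told apart from sites with and without EED.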

Other observations

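EED on H3K4me3 varied between chromosomes. Over the autosomes, the share of EED peaks on H3K4me3 ran from 62.0% of 150 on chromosome 12 to 84.5% of 220 on chromosome 11. The share of H3K4me3 peaks with EED ran from 0.874% of 2975 on chromosome 7 to 3.25% of 2461 on chromosome 13. The X chromosome, which is silenced in males during the pachytene stage of meiosis, held 1412 H3K4me3 peaks, of which 3 overlapped EED (0.212%; Wilson 95% interval 0.0723% to 0.623%). Of those 1412, 116 (8.22%) overlapped P17 H3K27me3, against 35.3% of all H3K4me3 peaks and 30.6% to 39.7% on single autosomes, and 5 EED peaks lay on the X chromosome in all.

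H3K4me3 peaks with EED were already wide at P12. Peaks that matched 1 to 1 between the stages had a median P12 width of 2424 bp (2325 to 2532, n = 828) with P17 EED and 1503 bp (1495 to 1512, n = 39995) without. The median ratio of the P17 to the P12 width was 1.12 (1.11 to 1.13) with EED and 1.21 (1.20 to 1.21) without. Among matched peaks with P17 H3K27me3 the ratios were 1.12 (1.10 to 1.13) and 1.15 (1.15 to 1.15), and without it 1.21 (1.12 to 1.35, n = 47) and 1.25 (1.25 to 1.26), with overlapping intervals. The median P17 widths were 2842 bp with EED and 1847 bp without, so in bp the medians differed more between the stages with EED than without. The P17 list pools 2 replicates and the P12 list has 1, so the absolute ratios cannot be told apart from a difference in depth or pooling.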
